A study of Mus musculus with 15 samples.

Results

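The genes described here encode the proteins of the cytosolic ribosome, together with the paralogs and relatives that share their names. Members were all probes whose platform annotation symbol starts with Rpl or Rps directly followed by a number, or is Rpsa, Rplp0, Rplp1 or Rplp2, and symbols starting with Rps6k were left out. The rule gave 84 probes of 66 genes, out of 25697 probes on the array and 16593 named genes. By role, 32 genes were of the large subunit, 23 of the small subunit and 3 of the stalk. Another 6 were paralogs (Rpl3l, Rpl22l1, Rpl39l, Rpl7l1, Rps27l and Rpl36al), and the last 2 were Rps19bp1, a binding protein of Rps19, and the retrogene Rps23rg1. Rpl22 and Rpl22l1 are described apart and stand outside the medians given below.

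Heart and liver came from male C57BL/6J-Tyr mice that were 17 weeks old and either homozygous for an ABCB5 mutation or wild type. The labels give no treatment and do not say what kind of mutation it is, and the strain was the same in every group. Illumina bead arrays were hybridised with RNA of 4 mutant and 4 wild-type hearts and of 3 mutant and 4 wild-type livers, which came from 8 mice by the animal numbers in the labels, 7 of them with both tissues. Replicate 1 of the mutant hearts and replicate 1 of the mutant livers are the same mouse, and so on for the other numbers in each genotype. Abcb5 encodes an ATP-binding cassette transporter, and 0 probes carried its name, so the genotype labels could not be checked by its level.

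Each ribosome is built from ribosomal RNA and a fixed set of proteins, of which one copy of nearly every kind is needed, so the genes are transcribed at high and matched levels in most tissues. Their mRNAs begin with a tract of pyrimidines, the 5′ terminal oligopyrimidine (TOP) motif, through which the mTOR pathway and the RNA-binding protein Larp1 set how much of them is translated. A few proteins have tissue-restricted relatives that can take their place in the ribosome, as Rpl3l does for Rpl3 in heart and skeletal muscle. Ribosomal protein genes also have many processed pseudogenes and near-identical copies, so a single probe may report more than 1 locus.

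The bases around the annotated transcription start are shown for 3 genes with a TOP motif exactly at that start and for 2 without it there. All of them are named in the results below. Each line holds 15 bases before the start and 15 from it on, in 5′ to 3′ direction of the transcribed strand, from RefSeq on build GRCm38.p6, with the C at the start and the pyrimidines that follow it in capitals.
Rps15a, chr7:118116133-118116162, minus strand: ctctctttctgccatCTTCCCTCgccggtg
Rps6, chr4:86857353-86857382, minus strand: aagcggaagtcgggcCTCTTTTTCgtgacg
Rpl38, chr11:114668565-114668594, plus strand: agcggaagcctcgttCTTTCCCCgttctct
Rpl22, chr4:152324421-152324450, plus strand: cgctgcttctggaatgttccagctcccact
Rpl3l, chr17:24727811-24727840, plus strand: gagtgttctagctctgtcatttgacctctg
Of the 66 genes, 57 had an entry in the promoter table, with 68 annotated starts. A C at the start followed by at least 4 pyrimidines on the transcribed strand was found at 11 of these 68 starts (16.2%), against 823 of all 32851 starts in the table (2.51%). A wider search let the whole motif lie anywhere in the 10 bases before the annotated start and the 10 from it on. The shares were then 47.1% of the ribosomal protein starts and 25.5% of all starts. A match describes these letters only, and the position of an annotated start is itself uncertain by some bases. Rpl22 and Rpl3l each had 2 annotated starts, of which the upstream one is printed. Neither start of either gene carried the motif exactly at the start. In the wider search the printed Rpl22 start counts as a match, since CTTCT begins 10 bases before it.

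The authors' deposited values are linear intensities in which the tissues were scaled separately. The background of the arrays lay at -2.38 to -2.37 in heart and at 109.9 in liver, so a dim probe reads near 0 in heart and near 110 in liver. Intensities are given below as deposited, while log2 changes (mutant minus wild type) are on the scale of log2(background-corrected intensity + 16), which understates changes of dim probes. A probe was tested in a tissue where it was above background on at least 3 arrays. The tissue labels fitted their marker genes: Myh6 of heart muscle was between 16897 and 38631 in heart and between 106.5 and 112.8 in liver, and Apoa1, made by hepatocytes, was between 13451 and 16187 in liver and between -2.45 and 4.43 in heart. Heart arrays had maxima between 23656 and 29794, except for wild-type heart 4 with 55710. Every array is a separate mouse within its tissue, and the number of mice limits the precision of all values.

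In heart, 72 of the 84 probes, standing for 60 of the 66 genes, were above background. Their mean intensities ran from 0.675 to 18235, with 45 of the 72 probes at 1000 or more and 15 below 200. The 12 probes that were not tested had intensities between -6.85 and 2.93, and they left Rpl6, Rpl14, Rpl17, Rpl39l, Rplp2 and Rps23 without a tested probe. In liver, 68 probes of 57 genes were tested, and Rpl3l, Rpsa and Rps23rg1 joined the genes without a tested probe. The 16 probes not tested there lay between 103.7 and 119. Rpl6, Rpl14, Rpl17, Rplp2, Rps23 and Rpsa encode core proteins that every ribosome holds, so a reading at background says only that these probes gave no signal.

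In mutant hearts, most tested ribosomal protein probes were measured within a narrow range of their wild-type level, as were most of all probes tested. Of the 72 probes, 2 passed the threshold (limma, Benjamini-Hochberg adjusted p below 0.05 over all 18459 probes tested in heart), those of Rpl22 and Rps15a, and both were lower in mutants. That is 2.78% of the members, beside 1.99% of all probes tested (1.15% higher and 0.84% lower), so the share called was near the background. The median log2 change of the 58 member genes without Rpl22 and Rpl22l1 was -0.033, against 0.0076 over all tested genes. It was -0.038 over 28 genes of the large subunit and -0.043 over 22 genes of the small subunit. The 95% interval of the change lay within 0.5 of zero on the log2 scale for 63 of the 72 probes (87.5%), against 77.5% of all probes tested. In bulk tissue, less RNA per cell and fewer cells of a type cannot be told apart.

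**Figure D1:**
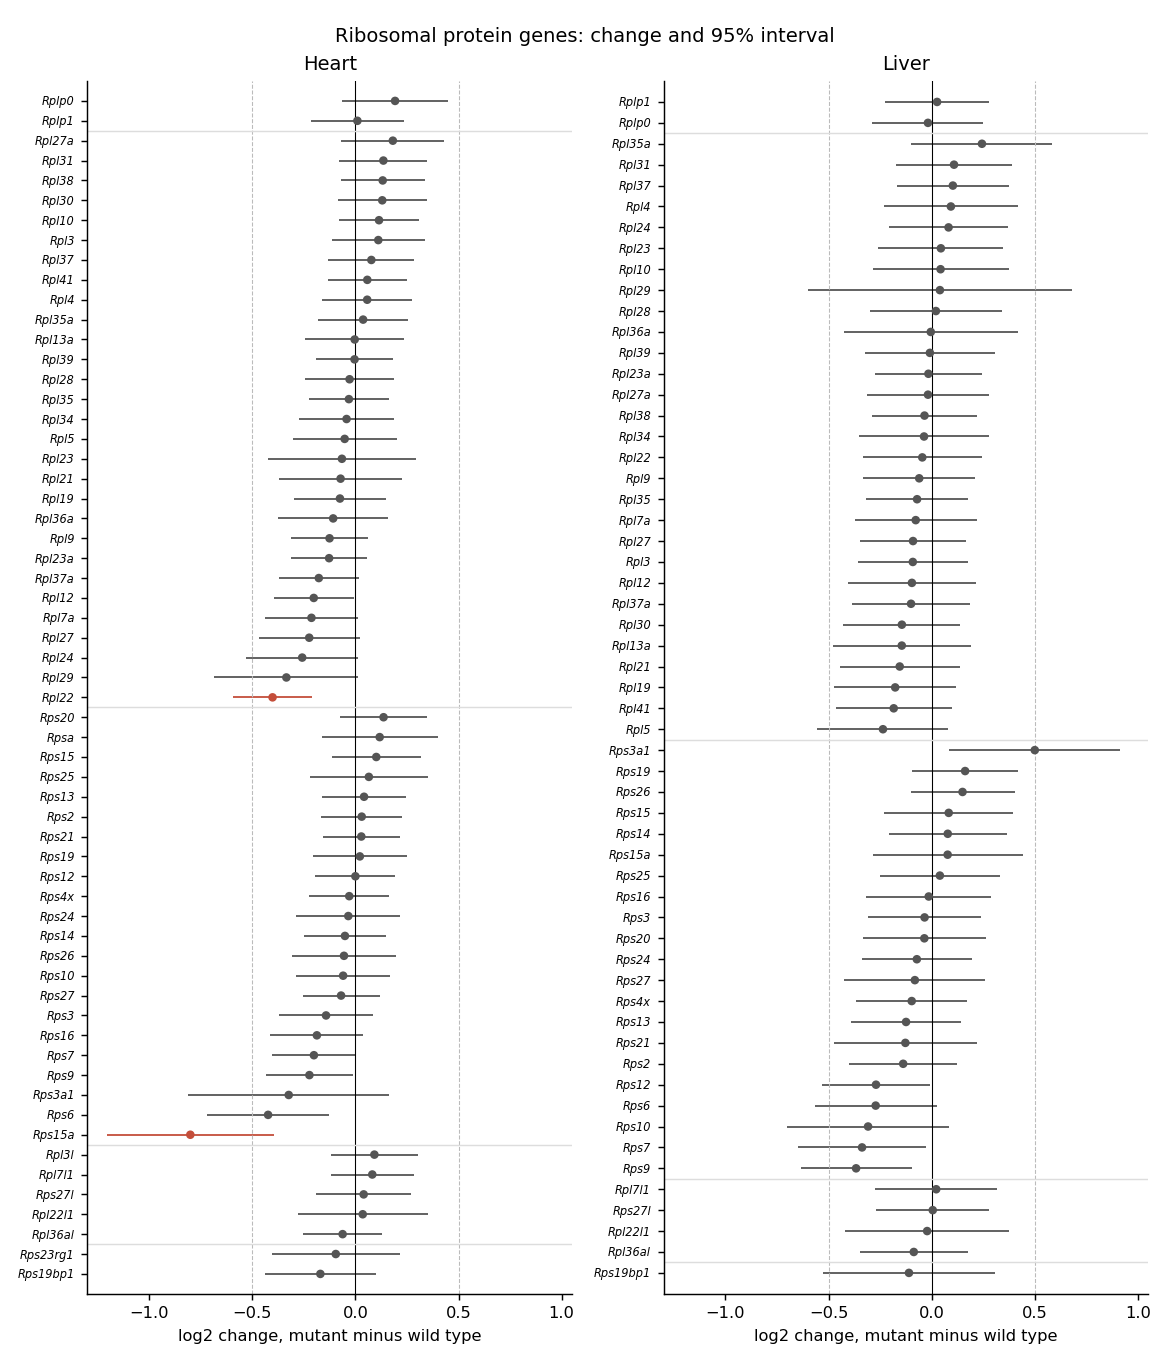
Log2 change, mutant minus wild type, of each ribosomal protein gene in heart (left) and liver (right), as the fitted value (point) and its 95% interval (bar) for its brightest tested probe in that tissue. Genes run from stalk to large subunit, small subunit, paralogs and others, in falling order within each, and red marks an adjusted p below 0.05. In heart Rpl22 (-0.40) and Rps15a (-0.80) passed; in liver no gene did.

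Rpl22, an RNA-binding protein on the surface of the large subunit that mice can live without, fell in mutant hearts. Its probe read 642, 655, 660 and 658 in mutant hearts 1 to 4, against 871, 799, 936 and 878 in wild-type hearts 1 to 4. The mutant hearts lay close together, all of them below every wild-type heart. The log2 change was -0.40 ± 0.09 (SE, n = 4 and 4, 1.32-fold lower, limma adjusted p = 0.0398), with a 95% interval of -0.60 to -0.21. Leaving out any single heart kept the size, between -0.44 and -0.37, but ended the call, with adjusted p between 0.0537 and 0.118. In liver the same probe read 528, 473 and 429 in mutants, against 491, 490, 451 and 518 in wild types, and the groups overlapped (-0.05 ± 0.13, adjusted p = 0.937). Its paralog Rpl22l1, which Rpl22 is known to repress in mouse cells, was close to background in both tissues. Rpl22l1 read 2.94, 9.85, 0.409 and -1.11 in mutant hearts, against 3.21, -2.07, 1.82 and 6.11 in wild-type hearts. Its log2 change was 0.04 ± 0.14 in heart, with a 95% interval of -0.28 to 0.35, and -0.02 ± 0.18 in liver, with an interval of -0.42 to 0.38.

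Rps15a, a protein of the body of the small subunit, had the largest log2 change among the members in heart. Its only probe was dim, where 45 of the 72 member probes in heart read 1000 or more, so the change describes the signal of this probe. It read 36.7, 12.2, 37.6 and 14.96 in mutant hearts, against 58.3, 51.2, 51.0 and 59.6 in wild-type hearts. The mutant hearts were all below the wild-type hearts but fell into a pair near 37 and a pair, hearts 2 and 4, near 12 to 15. The log2 change was -0.80 ± 0.19 (SE, n = 4 and 4, limma adjusted p = 0.0492). The call was lost without mutant heart 2 (-0.65), without mutant heart 4 (-0.69) and without any one of the wild-type hearts (-0.83 to -0.77), and it was kept without mutant heart 1 (-0.93) or 3 (-0.94), so that adjusted p over these fits ran from 0.0370 to 0.126. In liver the probe read 134, 126 and 122 in mutants, against 130, 120, 129 and 124 in wild types, within reach of the liver background (0.08 ± 0.17, adjusted p = 0.908).

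**Figure D2:**
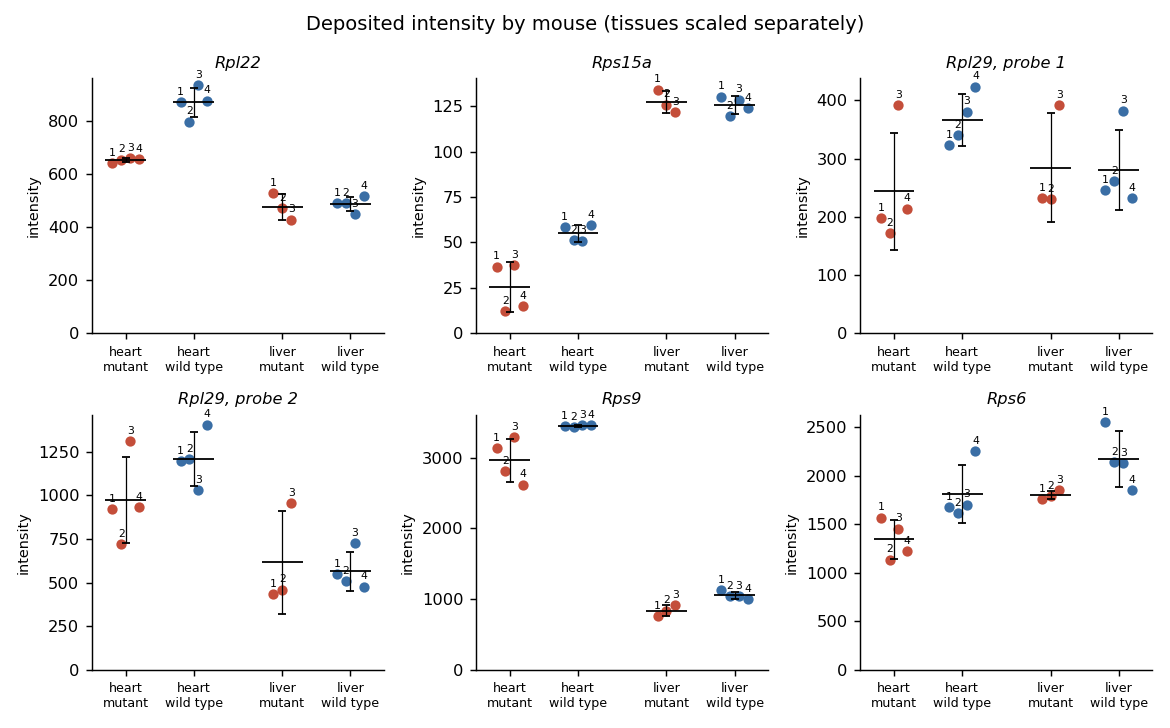
Deposited intensity (vertical axis from 0) of 6 member probes by tissue and genotype, with a point per mouse labelled by its replicate number, and the mean and SD as bars. The same number within a genotype is the same mouse in both tissues, and the tissues are on separate scales. Mutant hearts of Rpl22 (642 to 660) lie below all wild-type hearts (799 to 936), and mutant mouse 3 is the highest mutant for both Rpl29 probes in both tissues.

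The changes of the other members are given by value only. Counting the 2 called probes, groups did not overlap for 8 probes that were lower in mutant hearts (11.1% of the members, against 4.59% of all probes tested) and for 0 probes that were higher, against 5.48%. Unadjusted p was below 0.05 for 6 probes on the lower side and 0 on the higher side, where all tested probes had 7.36% and 8.41%. Log2 changes were above 0 for 29 of the 72 probes (40.3%), against 51.2% of all probes. These counts describe probes of the same 8 hearts, which are not independent of each other.

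Rps6, the small-subunit protein that the S6 kinases phosphorylate when growth signals reach the ribosome, came next by p. It read 1567, 1136, 1454 and 1226 in mutant hearts, against 1678, 1616, 1702 and 2256 in wild-type hearts. The groups did not overlap, with mutant hearts 2 and 4 the lowest and wild-type heart 4 far above the rest. Its log2 change of -0.42 ± 0.14 did not pass (limma adjusted p = 0.146). In liver it read 1762, 1790 and 1852 in mutants, against 2554, 2143, 2129 and 1850 in wild types, where mutant liver 3 was just above wild-type liver 4 (-0.27 ± 0.14, adjusted p = 0.483).

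Rps9, which lies near the decoding site and the mRNA entry of the small subunit, had 2 probes that were lower in mutants of both tissues by value. The brighter probe read 3130, 2815, 3292 and 2620 in mutant hearts, against 3446, 3429, 3463 and 3463 in wild-type hearts, and 764, 838 and 911 in mutant livers, against 1123, 1042, 1043 and 995 in wild-type livers. In both tissues every mutant was below every wild type. The log2 changes were -0.22 ± 0.10 in heart (limma adjusted p = 0.292) and -0.37 ± 0.12 in liver (adjusted p = 0.303), neither past the threshold. The other probe gave -0.23 ± 0.14 in heart and -0.50 ± 0.20 in liver, with overlapping groups in both, since mutant heart 4 (1219) and mutant liver 1 (645) lay among the wild types.

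Rps7, a small-subunit protein that also binds Mdm2, was the only other member whose groups were apart in the same direction in both tissues. It read 4117, 3859, 4162 and 3544 in mutant hearts, against 4253, 4660, 4665 and 4443 in wild-type hearts. Mutant livers had 1698, 1949 and 2014, against 2699, 2146, 2558 and 2071 in wild-type livers. The gap was narrow in both tissues, and neither change passed (heart -0.20 ± 0.09, limma adjusted p = 0.320; liver -0.34 ± 0.14, adjusted p = 0.389). Since Rps9 and Rps7 come from the same mice in both tissues, the tissues are not separate evidence.

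Among large-subunit genes with lower values in mutant hearts, Rpl29, a basic protein also known to bind heparin, varied most between mice. One probe read 197, 172, 392 and 214 in mutant hearts, against 323, 340, 381 and 424 in wild-type hearts. Its other probe read 922, 721, 1313 and 933 in mutant hearts, against 1199, 1208, 1030 and 1407 in wild-type hearts. Mutant heart 3 stood among the wild types on both probes, and the other mutant hearts below all of them. The log2 changes were -0.62 ± 0.20 (limma adjusted p = 0.152) and -0.34 ± 0.16 (adjusted p = 0.340). Without mutant heart 3 the change of the first probe was -0.85 with an adjusted p of 0.00877. In liver, mutant mouse 3 again read highest, with 231, 230 and 392 in mutants 1 to 3, against 246, 261, 382 and 232 in wild types on the first probe. The second probe had 434, 460 and 958 in mutant livers, against 550, 507, 728 and 477 in wild-type livers. Wild-type mouse 3 was the highest wild-type liver on both probes, and log2 changes in liver were -0.01 ± 0.30 and 0.04 ± 0.29.

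Rpl12, which sits at the base of the stalk where translation factors bind, read 2573, 2385, 2568 and 2318 in mutant hearts, against 2704, 2786, 2848 and 2997 in wild-type hearts. The groups were apart by a small margin (-0.20 ± 0.09, limma adjusted p = 0.299). Rpl37a had 3231, 3037, 3180 and 3023 in mutant hearts, against 3361, 3484, 3465 and 3816 in wild-type hearts, a log2 change of -0.18 ± 0.09. Rpl23a, at the exit of the peptide tunnel, had 3243, 3214, 3213 and 3228 in mutant hearts, against 3418, 3688, 3390 and 3614 in wild-type hearts, a log2 change of -0.13 ± 0.09. Mutant hearts were below wild types on each of these probes, with adjusted p of 0.359 for Rpl37a and 0.514 for Rpl23a. In liver the groups of these 3 genes overlapped, with log2 changes of -0.10, -0.10 and -0.02. Rpl7a, a large-subunit protein, had overlapping hearts (494 to 630 in mutants, 609 to 708 in wild types) and a log2 change of -0.21 ± 0.10.

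On the higher side in heart no member passed and no groups were apart. Rplp0, which anchors the stalk to the large subunit, read 72.7, 71.7, 72.1 and 102 in mutant hearts, against 65.4, 76.0, 57.7 and 68.5 in wild-type hearts. Mutant heart 4 stood alone above the others, which overlapped (0.19 ± 0.12, limma adjusted p = 0.475). Rplp1, which pairs with Rplp2 in the stalk, was among the brightest members, at 17552, 14810, 16516 and 14599 in mutant hearts, against 14036, 16119, 15575 and 17332 in wild-type hearts. Its log2 change was 0.01 ± 0.10 in heart, with a 95% interval of -0.22 to 0.24, and 0.03 ± 0.12 in liver, with an interval of -0.23 to 0.28. Rplp2 was at background in both tissues.

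The other positive values of smallest p in heart were small. Rpl31, which lies at the rim of the peptide exit, had 2 probes at 0.17 ± 0.10 and 0.14 ± 0.10. Rpl38, needed in mouse embryos for translation of some Hox mRNAs, read 11733, 13064, 11755 and 10842 in mutant hearts, against 10833, 11417, 10357 and 10570 in wild-type hearts, a log2 change of 0.13 ± 0.09. Its mutant heart 4 fell within the wild-type range. Rps20, of the head of the small subunit, had 0.14 ± 0.10, Rpl10, which joins the large subunit late in its maturation, 0.11 ± 0.09, and Rpl30 0.13 ± 0.10. Rps24, mutated in some families with Diamond-Blackfan anaemia, had 0.21 ± 0.12 on a dim probe (23.9 to 37.6 in mutants, 19.7 to 29.9 in wild types) but -0.03 ± 0.12 on a bright one. Rpl27a likewise had a probe at 0.18 ± 0.11 and another at -0.11. Of the 11 genes with several tested probes in heart, 7 had the same sign on all of them and 4 had both signs.

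Of the brightest members, Rpl23 on its brightest probe read 18348, 16156, 18483 and 17228 in mutant hearts, against 16827, 16607, 14747 and 27484 in wild-type hearts. Wild-type heart 4, the array with the highest maximum, stood far above the others, which overlapped, and the log2 change was -0.07 ± 0.17. The other tested probes of Rpl23 had 0.03 ± 0.08 and -0.01 ± 0.10. On the brighter of these, wild-type heart 4 read lowest (6988, against 7217 to 7417 in the other wild-type hearts). On the dimmer it read 182, against 156 to 178. Rpl41, one of the smallest proteins of the cell, read 16051, 15052, 15141 and 16475 in mutant hearts, against 14648, 16024, 14877 and 14717 in wild-type hearts (0.06 ± 0.09). The 95% interval of the log2 change in heart was -0.43 to 0.29 for the brightest Rpl23 probe and -0.13 to 0.25 for Rpl41.

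**Figure D3:**
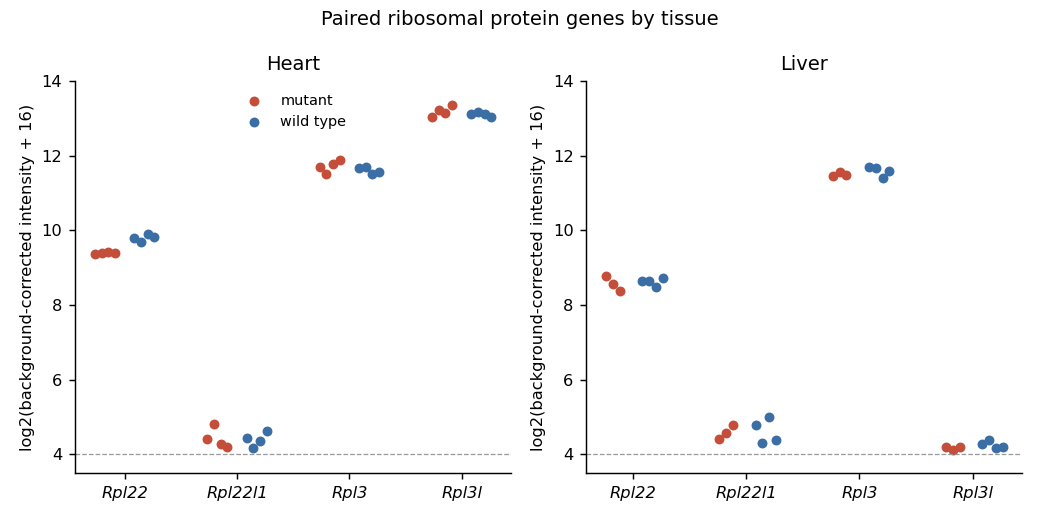
Level of each array, as log2(background-corrected intensity + 16), for Rpl22 and its paralog Rpl22l1 and for Rpl3 and its paralog Rpl3l, in heart (left) and liver (right), with mutants in red left of wild types in blue. The dashed line is the floor that a signal of 0 would give. Rpl22 is lower in mutant hearts, Rpl22l1 lies near the floor in both tissues, and Rpl3l is bright in heart and near the floor in liver.

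Rpl3 is a protein close to the catalytic centre of the ribosome, and its striated-muscle paralog Rpl3l marked the difference between the tissues. Neither gene was called between genotypes where it was tested. Rpl3l read 8426, 9491, 9043 and 10564 in mutant hearts, against 8782, 9160, 8846 and 8320 in wild-type hearts. The probe was not tested in liver, where 1 array (wild-type liver 2) was above background, with 111, 107 and 110 in mutants, against 112.7, 114, 109 and 110 in wild types. Rpl3 read 3273, 2901, 3496 and 3788 in mutant hearts, against 3217, 3276, 2896 and 3024 in wild-type hearts. Both genes had mutant heart 4 highest and overlapping groups, with log2 changes of 0.09 ± 0.10 for Rpl3l (limma adjusted p = 0.711) and 0.11 ± 0.10 for Rpl3 (adjusted p = 0.669). The 95% intervals were -0.12 to 0.30 for Rpl3l and -0.12 to 0.34 for Rpl3. In liver Rpl3 read 2908, 3110 and 2952 in mutants, against 3403, 3338, 2806 and 3204 in wild types (-0.09 ± 0.12). Among the other paralogs, Rps27l, a target of p53, had 0.04 ± 0.11 in heart and 0.01 ± 0.12 in liver, and Rpl36al had -0.06 ± 0.09 and -0.09 ± 0.12 in the same order. The brighter probe of Rpl7l1 had 0.08 ± 0.09 in heart and 0.02 ± 0.13 in liver, and Rpl39l, known from testis, was at background in both tissues.

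In mutant livers, 0 of the 68 probes passed the threshold, where 12 of all 11880 probes did (0.101%, with 0.0673% higher and 0.0337% lower, limma with Benjamini-Hochberg adjustment). Unadjusted p was below 0.05 for 1 higher probe and 4 lower probes, beside 5.31% and 6.09% of all probes. Groups did not overlap for 4 probes lower in mutants (5.88% of members, against 5.77% of all) and 2 probes higher (2.94%, against 5.42%), so both shares were near or under the background. The median log2 change of the 55 member genes was -0.036, against 0.0054 over all tested genes, with -0.036 for the large subunit and -0.072 for the small subunit. Log2 changes were above 0 for 23 of the 68 probes (33.8%), against 49.4% of all probes. The 95% interval lay within 0.5 of zero for 55 of the 68 probes (80.9%), against 58.9% of all probes.

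Rps3a1, a small-subunit protein near the mRNA exit, had the largest positive value in liver. It read 264, 217 and 276 in mutant livers, against 231, 193, 221 and 181 in wild-type livers, with mutant liver 2 inside the wild-type range. The log2 change was 0.50 ± 0.19 (limma adjusted p = 0.354). In heart the same probe had 100, 112.99, 184 and 252 in mutants, against 170, 181, 192 and 246 in wild types, where mutant hearts 1 and 2 were the lowest and mutant heart 4 the highest of all 8 (-0.32 ± 0.22, adjusted p = 0.530). Rps12, of the head of the small subunit, read 3412, 2987 and 3379 in mutant livers, against 4166, 3734, 4045 and 3691 in wild-type livers. Its groups were apart in liver (-0.27 ± 0.12, adjusted p = 0.427) and overlapped in heart, at a log2 change of 0.00 ± 0.09 with a 95% interval of -0.19 to 0.19. Rpl41 read 8030, 7183 and 8171 in mutant livers, against 10262, 8351, 8558 and 8284 in wild-type livers (-0.18 ± 0.13), with the groups apart by a narrow margin and wild-type liver 1 well above the rest.

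On the higher side in liver was Rps19, the gene most often mutated in Diamond-Blackfan anaemia. Its brighter probe read 2295, 2407 and 2588 in mutants, against 2284, 2248, 2028 and 2166 in wild types. Its dimmer probe had overlapping groups (0.09 ± 0.23). Rps26, which lines the mRNA exit channel, read 2407, 2259 and 2584 in mutants, against 2174, 2126, 2238 and 2202 in wild types. Groups were apart by a narrow margin for the brighter Rps19 probe and for Rps26. Log2 changes were 0.16 ± 0.12 and 0.15 ± 0.12 (limma adjusted p = 0.662 and 0.681). Rpl35a, another gene of that anaemia, had overlapping groups and a log2 change of 0.24 ± 0.16, with mutant liver 2 (1004) inside the wild-type range. Rpl5, which carries the 5S RNA into the large subunit and binds Mdm2, had -0.24 ± 0.14, Rps10, near the mRNA entry, -0.31 ± 0.18, and Rps3, at the mRNA entry, -0.20 ± 0.12 on its dimmer probe and -0.03 ± 0.12 on its brighter one. Rpl31 had 0.11 ± 0.13 on its brighter probe and -0.17 ± 0.13 on its dimmer one in liver. Rpl37 had 0.10 ± 0.12, Rpl4 0.09 ± 0.15 and the dimmer Rpl7l1 probe 0.13 ± 0.16. Of the brightest genes in liver, Rpl23 had 0.04 ± 0.14 on its brightest probe, Rps20 -0.04 ± 0.14 and Rps2 -0.14 ± 0.12. Rplp0 had -0.02 ± 0.12 there. None of these passed the threshold.

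**Figure D4:**
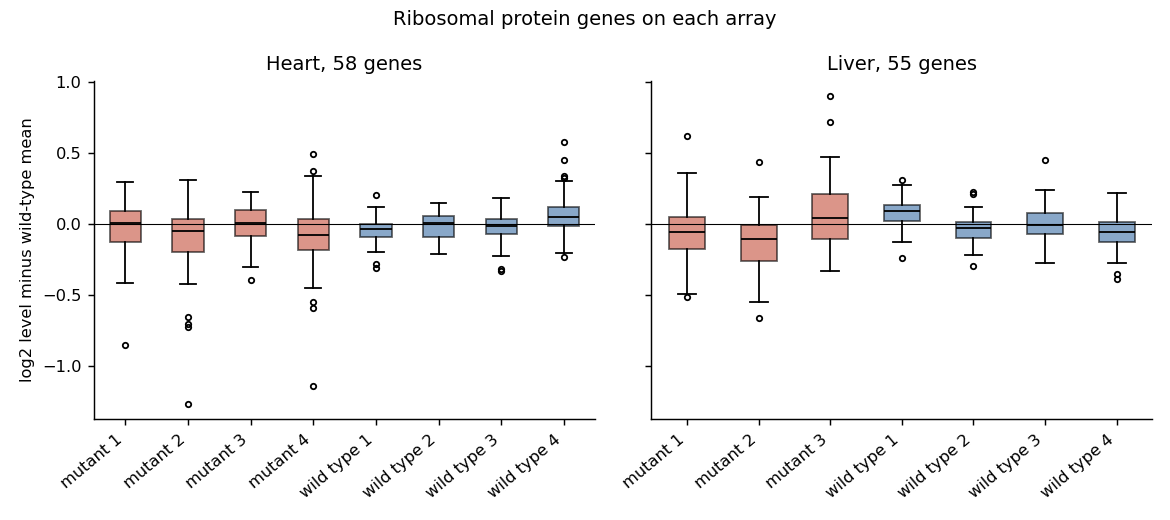
Deviation of the member genes without Rpl22 and Rpl22l1 from their wild-type mean (vertical axis, log2) on each heart (left, 58 genes) and liver (right, 55 genes) array, mutants in red and wild types in blue. Boxes span the quartiles with the median as a line, whiskers reach 1.5 times the box height, and circles are genes beyond. Medians stay between -0.102 and 0.091. Since deviations are from the wild-type mean, the choice of reference widens mutant boxes, as it does over all tested genes. How much of their width it gives was not tested. Over the member genes the SD of the deviations was 0.135 on mutant heart 3 and 0.144 on wild-type heart 4.

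Taking each array as a whole, the median deviation of the member genes from the wild-type mean was 0.0094, -0.051, 0.010 and -0.079 log2 units in mutant hearts, against -0.034, 0.012, -0.014 and 0.049 in wild-type hearts. Mutant hearts 2 and 4 were the lowest arrays, and mutant hearts 1 and 3 lay among the wild types. Without mutant hearts 2 and 4, a choice made after seeing the values, the median change of the member genes was -0.0089 and 0 members passed. In liver the medians were -0.051, -0.102 and 0.043 in mutants, against 0.091, -0.024, -0.0065 and -0.056 in wild types. Mutant liver 2 was lowest and wild-type liver 1 highest, and the groups overlapped in both tissues. Of the 3 mutant mice with both tissues, mouse 2 was the lowest in both and mouse 3 the highest in both, though mice 1 and 3 hardly differed in heart.

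Most member probes, though not every subset of them, differed more between mutant mice than between wild-type mice. In heart the SD of the log2 values was larger among mutants for 45 of 72 probes (62.5%), against 46.9% of all tested probes, with a median SD of 0.130 in mutants and 0.0990 in wild types. In liver it was larger among mutants for 48 of 68 probes (70.6%), against 54.4% of all tested probes, with a median SD of 0.169 in 3 mutants and 0.126 in 4 wild types. The median SD went the other way for small-subunit probes in liver (0.145 in mutants, 0.159 in wild types). It also did for stalk probes in liver (0.0813 and 0.0950) and paralog probes in heart (0.126 and 0.131). Over the brightest probe of each gene, small-subunit genes in liver (0.144 and 0.127) and paralogs in heart (0.115 and 0.113) did not. The shares of probes were not tested, since probes of the same arrays move together.

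The genotype change of a member was in no case called different between the tissues. The change in liver minus the change in heart, fitted over all 15 arrays with the mouse as a random block, passed for 0 of the 68 members tested in both tissues, beside 258 of 11350 probes (2.27%, limma with Benjamini-Hochberg adjustment). The smallest p among members belonged to Rps15a, with a difference of 0.88 ± 0.27 (adjusted p = 0.104). Rps3a1 had 0.83 ± 0.33 (adjusted p = 0.215) and Rpl22 0.36 ± 0.14 (adjusted p = 0.221). The fall of Rpl22 in mutant hearts was therefore not shown to differ from its change in liver. Rpl31 had -0.35 ± 0.14 on its dimmer probe but -0.03 ± 0.15 on its brighter one, and Rps12 had -0.27 ± 0.13.

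Genes that work with the ribosomal proteins were described from lists beside them. Of 36 tested genes of ribosome biogenesis in heart, 1 rose and 0 fell (6 higher and 1 lower at unadjusted p below 0.05, 24 of 36 positive), beside the 1.15% and 0.84% of all probes called higher and lower. The gene called was Pes1, which rose by 0.52 ± 0.11 on the log2 scale (limma adjusted p = 0.0355). Its protein, with those of Bop1 and Wdr12, matures the large subunit. Bop1 had 0.50 ± 0.14 (adjusted p = 0.105), and the median of the list was 0.083. Of 17 translation factors and other proteins whose mRNAs carry a TOP motif, 1 fell in heart: Pabpc1, the cytoplasmic poly(A)-binding protein, averaged 7.46 in mutant hearts and 8.61 in wild-type hearts on the log2 scale, a change of -1.15 ± 0.22 (adjusted p = 0.0193). The median of that list was 0.026, with 0 higher and 2 lower at unadjusted p below 0.05. The elongation factor gene Eef2 had -0.32 ± 0.13 and did not pass.

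Of 17 tested genes of growth signalling to ribosomal protein mRNAs, 0 passed in heart (1 higher and 3 lower at unadjusted p below 0.05), with a median of -0.0042. Tsc1, a brake on mTOR, had 0.39 ± 0.10 (limma adjusted p = 0.0713), and Rps6kb2, one of the S6 kinases, had -0.34 ± 0.11 (adjusted p = 0.149). Both probes were dim. Log2 means were 4.85 in mutants and 4.45 in wild types for Tsc1, and 4.88 and 5.23 for Rps6kb2. Eif4ebp2 had -0.64 ± 0.24 (limma adjusted p = 0.212) and Ddit4 -0.27 ± 0.12 (adjusted p = 0.307). The 72 tested genes of the mitochondrial ribosome had 0 calls (5 higher and 4 lower at unadjusted p below 0.05) and a median of 0.043, opposite in sign to that of the cytosolic genes. Fau, which encodes a small-subunit protein fused to a ubiquitin-like domain, had -0.12 ± 0.12. In liver none of these lists had a call: medians were -0.079 for biogenesis (33 genes), -0.051 for the other TOP mRNAs (14 genes), 0.097 for growth signalling (14 genes) and -0.044 for the mitochondrial ribosome (71 genes). At unadjusted p below 0.05, biogenesis had 2 higher and 3 lower in liver, the other TOP mRNAs 1 and 2, growth signalling 2 and 1, and the mitochondrial ribosome 1 and 2. Hnrnpa1, of the other TOP mRNAs, had -0.68 ± 0.12 in liver with the groups apart (limma adjusted p = 0.0814). Tsc2 had 0.45 ± 0.11 there, also with the groups apart (adjusted p = 0.191).

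Some markers of other cells moved with the genotype in heart beside these results. Over all probes tested in heart, 1.15% were called higher and 0.84% lower (limma). At unadjusted p below 0.05 these shares were 8.41% and 7.36%, and 51.2% of all probes had positive changes. Of 7 erythroid genes, all above background, 4 fell in mutant hearts (Alas2, Fech, Hbb-bt and Slc4a1), while 2 had positive changes, of up to 0.86, that did not pass. The summed level of the list was 25970 to 30751 in mutant hearts, against 37100 to 74285 in wild-type hearts. Of 9 fibroblast genes 2 rose, Col3a1 by 0.81 ± 0.14 and Col1a1 by 0.74 ± 0.13 on the log2 scale, with summed levels of 8314 to 9362 in mutant hearts, against 8577 to 10020 in wild-type hearts, and Postn at background. Of the others, 3 had negative changes, among them Dcn with -0.27 ± 0.10 and the groups apart (adjusted p = 0.227). All 10 endothelial genes had positive changes, of which 0 passed (5 at unadjusted p below 0.05), and they summed to 8248 to 9117 in mutant hearts, against 6901 to 7991 in wild-type hearts. Of 9 cardiomyocyte genes 0 passed, also at unadjusted p, and they summed to 109082 to 132497 in mutant hearts, against 123047 to 214056 in wild-type hearts. Of 8 skeletal muscle genes 0 passed (2 higher at unadjusted p below 0.05), with sums of 7906 to 16945 in mutant hearts, against 6394 to 8016 in wild-type hearts, and Myh1 and Myh4 at background. Acta1, the skeletal actin gene that heart muscle also transcribes, had 1.42 ± 0.33 (limma adjusted p = 0.0515). Among macrophage (7), lymphocyte (7) and hepatocyte (6) genes 0 passed, with 1, 3 and 1 at unadjusted p below 0.05. The part of these cells in the values of Rpl22 and Rps15a was not tested.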

How the data were processed

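Total RNA of heart and liver was hybridised as biotin-labelled cRNA to Illumina bead arrays, per the labels' protocols. The deposited table holds linear intensity values per probe. The submitters' processing notes name GenomeStudio 2011.1, and the normalization is not given in the sources used here. A second deposited table has 15 columns whose names match no sample label and was not used.

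Within each array the background was taken as the mode of the low values, with the SD below it. After normexp correction and an offset of 16, values were put on the log2 scale. A probe was tested where a normal background gave p below 0.05 on at least 3 arrays of the tissue. Within a tissue, limma 3.58.1 under R 4.3.3 tested mutant against wild type (lmFit and eBayes, two-sided, Benjamini-Hochberg over all tested probes), and tissues with duplicateCorrelation on the mouse (statmod 1.5.0). Tissues were paired by the labels' animal numbers, with an estimated correlation of 0.012. For gene medians the brightest tested probe of a gene in that tissue was used. All 84 member probes matched RefSeq by gene ID. The fits were tested on simulated data with known changes.

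Named were the Rpl22, Rpl3 and stalk genes with their paralogs, probes past the threshold, otherwise up to 8 probes of smallest p per direction, the 5 brightest genes, up to 4 genes per related list and 5 probes of the tissue difference. Probes named because their groups did not overlap, Rpl29 on its second probe and the other paralogs were named after their values were seen. Members and lists were chosen with earlier results of these data known.

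Alternatives were the background step, offset, filter, scaling, eBayes settings, a fit of all arrays, array weights, the replicate number as a block, and each array left out.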

Additional observations from a re-analysis of the deposited data

Results flagged for a closer look

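Among the 68 groups of 4 arrays checked, formed by the named member probes, 4 held an array that stood apart from the rest of its group by Dixon's criterion on the log2 scale, which chance alone passes in about 1 of 20 groups. Rplp0 read 101.5 in mutant heart 4, against 71.7 to 72.7 in the other mutant hearts. Wild-type heart 4 read 156.9 for Rpl31 on its dimmer probe, against 179.4 to 181.1 in the other wild-type hearts. It also read 2256 for Rps6, against 1616 to 1702 in those hearts. Rpl41 read 10262 in wild-type liver 1, against 8284 to 8558 in the other wild-type livers. The brightest Rpl23 probe in wild-type heart 4 (27484, against 14747 to 16827 in the other wild-type hearts) fell short of the criterion on that scale. Groups of 3 mutant livers were not checked.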

How the results depend on the processing

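The precision rests on 3 or 4 mice a group, and dim probes are limited by the background, above all in liver. Over all probes, the 367 calls in heart became 130 with a floor of 16, 577 with an offset of 50, 244 without the filter, 606 with trended robust eBayes, 575 in a fit of all 15 arrays and 237 with the replicate number as a block, and 198 to 294 when leaving out a replicate. The 2 member calls in heart became 1 with the floor, without the filter, with array weights and for members of at least 100 intensity units (an alternative chosen after seeing the data). They became 0 with the replicate block and without mutant hearts 2 and 4, and 0 to 2 when leaving out a replicate; without mutant heart 3 the calls were Rps15a and Rpl29. Rpl22 was called in 8 of 17 alternatives (adjusted p 0.00685 to 0.118) and Rps15a in 7 of 17 (0.0206 to 0.220), with the same sign in all 17. Rps15a had -1.17 with the floor and -0.48 with the offset of 50. Without wild-type heart 4 or mutant heart 4 the heart median of the member genes was -0.0044 and -0.0033. It was -0.0037 with array weights, and the heart median was -0.055 without wild-type heart 1 and -0.018 without mutant heart 2. The liver median was -0.084 without mutant liver 3, -0.019 without mutant liver 2, -0.067 without wild-type liver 2 and -0.070 without wild-type liver 4 or with the replicate block. Both tissues' medians stayed below 0 in every alternative run.

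In liver the 12 calls over all probes became 5 with the floor, 0 without the filter, 36 with trended robust eBayes, 152 in the fit of all arrays and 32 with the replicate block, and 2 to 54 when leaving out a replicate. Members had 0 calls in all 17 alternatives. For the tissue difference, 258 calls became 137 to 291 when leaving out a replicate, and members had 0 calls in all 24 alternatives. The causes of these shifts were not tested. Same-numbered mutant and wild-type arrays correlated in their deviations at -0.106 to -0.051 over 4 pairs in heart and -0.043 to 0.014 over 3 in liver. Differently numbered pairs ran from -0.148 to 0.230 in heart and from -0.025 to 0.067 in liver. These correlations cannot tell whether same-numbered arrays share anything besides the number.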
